A study of Mus musculus with 2 samples.

Results

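The 40 genes described here encode the machinery of autophagy and its cargo receptors. They were found by matching gene symbols to a given list, and 39 of the 40 had at least 20 counts summed over both libraries, out of 14433 genes measured in that way. Atg2a, which encodes a lipid transfer protein, had 0 counts in each library, which allows up to 3 counts, or 0.148 scaled CPM (counts relative to the TMM-adjusted library total) in the library labelled HKO and 0.153 in the library labelled flox. RNA from livers of chow-fed C57BL/6 mice, 8 weeks old, was pooled over 4 mice per genotype and sequenced as 1 library each. The library labelled HKO came from Mettl3 flox/flox mice carrying Alb-Cre+/-, which deletes the floxed exons in cells that express albumin, and the library labelled flox from Mettl3 flox/flox mice without Cre. The floxed alleles are thus common to both, and neither library comes from mice with Cre and unfloxed Mettl3. With 1 pool per genotype no difference has a replicate check, so all values describe these libraries and all intervals cover counting error only.

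Autophagy encloses cytoplasm in a double membrane, the autophagosome, and delivers it to lysosomes. The ULK kinase complex starts the process, a class III PI3-kinase marks the membrane, lipid transfer proteins feed its growth, and a ubiquitin-like conjugation system attaches ATG8 proteins to it, to which cargo receptors bind. In liver, autophagy is known to release amino acids during fasting and to clear mitochondria, protein aggregates and lipid droplets.

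Annotated genes summed to 18438807 counts in the library labelled HKO and to 21457504 in the library labelled flox. Mettl3, the targeted gene, had 220 counts in the library labelled HKO and 156 in the library labelled flox, a log2 ratio of 0.45 (95% interval 0.15 to 0.75) that runs against the labels. The count covers all exons of the gene and all cells of the liver, and 18.4% of its exonic bases lie in Tox4, so it checks the label little. Each ratio sets the library labelled HKO over the library labelled flox, with TMM factors as the scale, which assume that most genes are level. Scaling by total counts raises every log2 ratio by 0.27, so a direction is given below together with the genes that lose it. A gene is called past 2-fold, or past 1.5-fold, when its ratio reaches that size and its counting interval excludes equality.

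On the TMM scale most autophagy genes were a little lower in the library labelled HKO, and 1 gene, Depp1, stood far on the other side. Of the 39 measured members, 32 had a ratio below 1 (82.1%, against 49.2% of all measured genes). The middle member had a log2 ratio of −0.28 and the quartiles stood at −0.52 and −0.07, while the median of all measured genes was 0.01. Counting intervals lay below equality for 25 members (64.1%, against 27.7% of all genes) and above it for 4 (10.3%, against 28.3%). Past 2-fold, 1 member was higher (2.6%, against a background of 5.74%) and 2 were lower (5.1%, against 4.66%). Past 1.5-fold, 2 were higher (5.1%, against 13.0%) and 8 lower (20.5%, against 10.3%). Past 2-fold the members' shares were thus near those of all genes, and the wider gaps to the background were in ratios below 1 and in intervals below equality.

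All 39 members had at least 100 counts, and among genes of that depth 31.7% had an interval below equality, 9.34% were past 1.5-fold lower, 2.82% past 2-fold lower and 4.09% past 2-fold higher. At a log2 ratio above 1.5 in size 0 members were called, against 2.21% of all genes higher and 2.13% lower. With total counts in place of TMM factors the median of the members becomes −0.02, while that of all genes becomes 0.28. On that scale 21 of the 39 members stay below 1, against 28.1% of all genes. Intervals then lie below equality for 15 members, include it for 13 and lie above it for 11. The matching interval shares of all genes on that scale were not counted. Depp1 stays past 2-fold higher on that scale, while Gabarapl1 and Atg13 are no longer past 2-fold lower. The distance between both medians is −0.29 on either scale. Scaling shifts every log2 ratio by the same amount, so this distance cannot differ and is no check of the result.

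**Figure D1:**
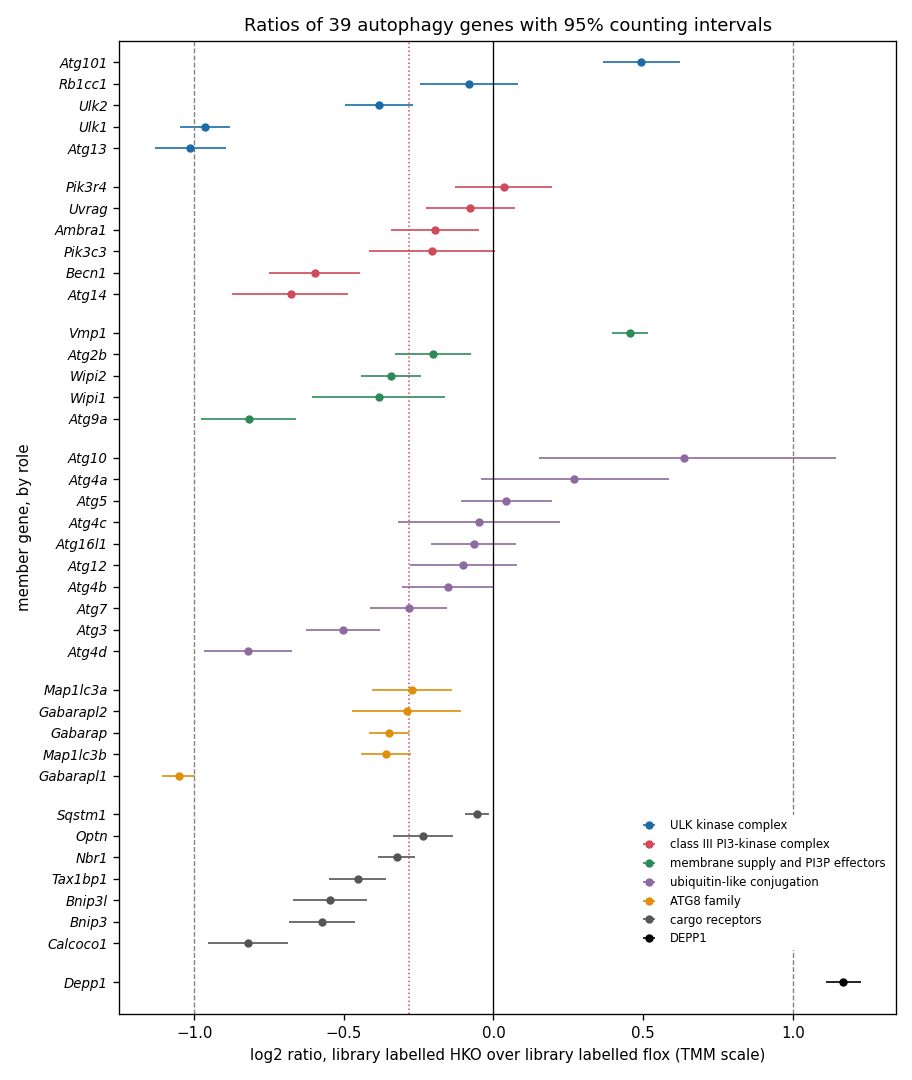
Log2 ratio, library labelled HKO over library labelled flox (x axis), for each of the 39 measured members (y axis), grouped by role. Points are single ratios, bars their 95% counting intervals, dashed lines mark 2-fold, the solid line equality and the dotted line the members' median of −0.28. Depp1 is the only member to the right of 2-fold, and Gabarapl1 and Atg13 sit at the left line.

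The promoter windows of the 3 genes past 2-fold are shown here because these genes are the farthest apart of the set. Each runs from 250 bases before to 50 bases after the transcript start in RefSeq on GRCm38.p6 and is written 5′ to 3′ on the gene's strand. They lie at chr6:116650434-116650733 (plus strand) for Depp1, chr6:129532942-129533241 (plus) for Gabarapl1 and chr2:91710543-91710842 (minus) for Atg13. Capitals mark ATAAACA, a variant of the site that forkhead factors such as the FOXO proteins bind.
Depp1: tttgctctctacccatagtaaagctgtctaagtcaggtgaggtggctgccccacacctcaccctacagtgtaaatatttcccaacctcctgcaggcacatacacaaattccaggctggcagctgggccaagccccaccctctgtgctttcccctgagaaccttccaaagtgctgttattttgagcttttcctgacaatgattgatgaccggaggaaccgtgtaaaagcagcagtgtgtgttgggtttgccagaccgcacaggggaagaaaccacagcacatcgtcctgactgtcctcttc
Gabarapl1: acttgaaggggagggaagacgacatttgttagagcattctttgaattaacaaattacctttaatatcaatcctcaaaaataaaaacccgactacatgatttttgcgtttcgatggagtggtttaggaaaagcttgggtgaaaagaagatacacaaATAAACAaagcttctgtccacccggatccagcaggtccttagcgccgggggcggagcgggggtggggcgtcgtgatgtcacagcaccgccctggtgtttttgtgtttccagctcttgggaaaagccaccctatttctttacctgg
Atg13: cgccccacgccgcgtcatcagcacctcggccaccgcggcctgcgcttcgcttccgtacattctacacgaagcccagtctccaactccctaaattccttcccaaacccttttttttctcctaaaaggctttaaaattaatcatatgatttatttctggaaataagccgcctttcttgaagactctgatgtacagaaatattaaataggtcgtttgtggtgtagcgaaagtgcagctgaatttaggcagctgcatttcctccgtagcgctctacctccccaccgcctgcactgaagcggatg
Gabarapl1 carries ATAAACA 95 bases before the start, and the other windows do not hold these letters on either strand. Apart from the core named below, no other form of the forkhead site was searched, so other forms may be present in lower case. The motifs below were searched on both strands in the 39 windows annotated for 33 of the members. The forkhead core GTAAACA was in 0 of the 39, against 3.65% of 32851 promoter windows of all genes. ATAAACA, added after the windows had been read, was in 4, those of Ambra1, Atg4a, Gabarapl1 and Wipi2 (10.3%, against 4.60%). Because these letters were chosen with the windows known, their share is not an even comparison with that of all genes. The E-box CACGTG, which the lysosomal and autophagy regulator TFEB binds, was in 5, those of Atg14, Atg3, Atg5, Atg7 and Bnip3 (12.8%, against 7.15%). None of the genes past 2-fold has the E-box in its window.

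Depp1, a FOXO target that has been linked to autophagy, was the member furthest towards the library labelled HKO. It lies on chromosome 6 (positions 116650609 to 116652794, plus strand, ENSMUSG00000048489). It had 7987 counts in the library labelled HKO and 3437 in the library labelled flox, a ratio of 2.25 (2.16 to 2.34). None of its exonic bases overlaps another gene, and it stayed past 2-fold under each scaling tried, with a log2 ratio of 1.17 on the TMM scale and 1.44 with total counts.

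Per kilobase of exon Depp1 was also the highest of all members in the library labelled HKO, at 291 scaled CPM per kb, against 129 in the library labelled flox, where it ranked below Gabarapl1 and Sqstm1. Gabarapl1 had 94.9 scaled CPM per kb in the library labelled HKO and 197 in the library labelled flox, where it was the highest. Depp1 and Gabarapl1 thus stood in opposite order in the libraries. The ratio of their counts, which does not depend on scaling between libraries, was 2.07 (1.99 to 2.15) in the library labelled HKO and 0.444 (0.426 to 0.462) in the library labelled flox.

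Sqstm1 was second in both libraries, at 153 scaled CPM per kb in the library labelled HKO and 159 in the library labelled flox. The lowest measured member in the library labelled HKO was Rb1cc1, at 2.04 scaled CPM per kb, against 2.16 in the library labelled flox, where Atg10 was lower still, with 2.65 scaled CPM per kb in the library labelled HKO and 1.70 in the library labelled flox. Receptor and ATG8 genes filled most of the 10 highest places in each library.

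**Figure D2:**
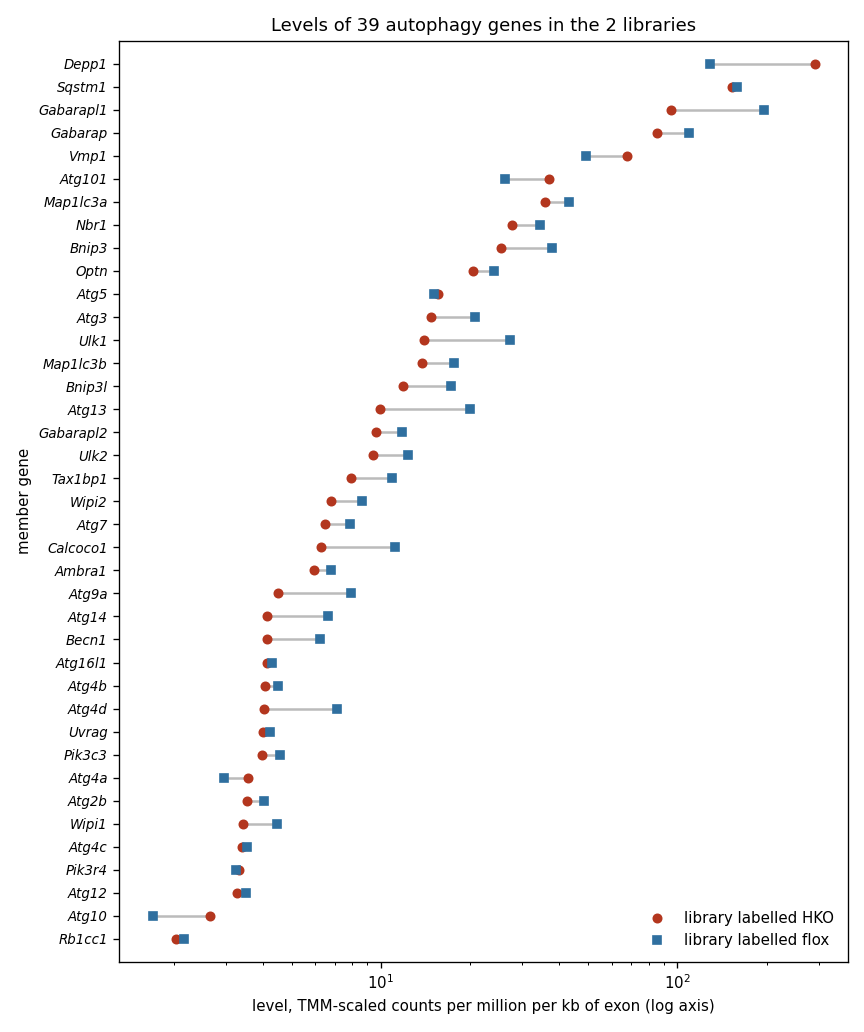
Level of each measured member (y axis) in scaled CPM per kilobase of exon (x axis, log scale) in the library labelled HKO (circles) and the library labelled flox (squares), ordered by the level in the library labelled HKO. Depp1 is at 291 and 129 scaled CPM per kb, and most other circles lie left of their squares.

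In the ULK kinase complex the kinase and its regulatory subunit were lower in the library labelled HKO while another subunit was higher. Atg13, the subunit that links the kinase to nutrient signals, lies on chromosome 2 (positions 91674618 to 91710576, minus strand). It had 877 counts in the library labelled HKO and 1712 in the library labelled flox, a difference of 2.02-fold lower (1.86 to 2.19). Ulk1, the initiating kinase, had 1828 and 3449 counts in the libraries labelled HKO and flox, 1.95-fold lower (1.84 to 2.07), just short of the limit. Its paralogue Ulk2 had 1140 counts in the library labelled HKO and 1438 in the library labelled flox, 1.30-fold lower (1.21 to 1.41). As a share of the counts of both kinases, Ulk1 took 61.6% (59.8 to 63.3) in the library labelled HKO and 70.6% (69.3 to 71.9) in the library labelled flox (exact Clopper-Pearson intervals).

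Atg101, which binds and stabilises Atg13, was on the other side, with 1190 counts in the library labelled HKO and 817 in the library labelled flox, 1.41-fold higher (1.29 to 1.54). The number of Atg13 counts per Atg101 count was therefore 0.737 (0.675 to 0.805) in the library labelled HKO and 2.10 (1.93 to 2.28) in the library labelled flox. Rb1cc1, the scaffold also called FIP200, had 606 counts in the library labelled HKO and 620 in the library labelled flox, with an interval that included equality on the TMM scale and lay above it with total counts (0.02 to 0.35 on the log2 scale). The median of these 5 genes was −0.38.

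Within the class III PI3-kinase complexes, Atg14 and Becn1 were lower in the library labelled HKO on both scales. Atg14, which places the complex at the endoplasmic reticulum, had 361 counts in the library labelled HKO and 559 in the library labelled flox, 1.60-fold lower (1.40 to 1.83). Becn1, the core regulator beclin 1, had 590 and 864 counts in the libraries labelled HKO and flox, 1.51-fold lower (1.36 to 1.68). Of its exonic bases 43.9% overlap Cntd1, which itself had 2 counts in the library labelled HKO and 0 in the library labelled flox. The lipid kinase Pik3c3 (358 counts in the library labelled HKO, 399 in the library labelled flox), its partner Pik3r4 (651 and 615) and the endosomal subunit Uvrag (730 and 745) all had intervals that included equality on the TMM scale. With total counts that of Pik3c3 still did, while Pik3r4, at a log2 ratio of 0.30 (0.14 to 0.46), and Uvrag, at 0.19 (0.04 to 0.34), were higher. Ambra1, a scaffold that binds beclin 1, had 735 counts in the library labelled HKO and 814 in the library labelled flox, 1.14-fold lower (1.03 to 1.27), and with total counts its log2 ratio turns to 0.07 with an interval that includes equality. The group's median was −0.20, and with total counts it is 0.07.

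Among genes for membrane supply, the scramblase genes Atg9a and Vmp1 lay on opposite sides. Atg9a, on the vesicles that seed the autophagosome, had 523 counts in the library labelled HKO and 892 in the library labelled flox, 1.76-fold lower (1.58 to 1.97). Its exons overlap Ankzf1, on the other strand, and Gm29253 over 32.6% of their bases, and Ankzf1 had 289 counts in the library labelled HKO and 475 in the library labelled flox. Vmp1, the scramblase of the endoplasmic reticulum, had 5270 counts in the library labelled HKO and 3717 in the library labelled flox, 1.37-fold higher (1.31 to 1.43).

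The PI3P-binding proteins Wipi1 (305 counts in the library labelled HKO, 385 in the library labelled flox) and Wipi2 (1448 and 1775) differed by a like amount, 1.30-fold (1.12 to 1.52) and 1.27-fold lower (1.18 to 1.36) in the library labelled HKO. With total counts both intervals include equality, from −0.34 to 0.10 for Wipi1 and from −0.18 to 0.03 for Wipi2 on the log2 scale. Of the counts of Wipi1 and Wipi2 together, Wipi2 made up 82.6% (80.7 to 84.3) in the library labelled HKO. In the library labelled flox it made up 82.2% (80.5 to 83.8), and the intervals overlap. Atg2b, the paralogue of the undetected Atg2a, had 958 counts in the library labelled HKO and 1065 in the library labelled flox, 1.15-fold lower (1.05 to 1.25), which turns to a log2 ratio of 0.07 with total counts. The measured genes of this group had a median of −0.34, but their summed level, of which Vmp1 is the largest part, was 420 scaled CPM in the library labelled HKO and 400.5 in the library labelled flox.

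The conjugation genes had the median nearest to 0 of the role groups on the TMM scale. For 6 of the 10 the interval included equality on that scale (44.0% of all genes), among them Atg5, Atg12 and Atg16l1, which form the complex that completes the reaction. Atg5 had 739 counts in the library labelled HKO and 694 in the library labelled flox, Atg12 510 and 529, and Atg16l1 801 and 811. With total counts Atg5, at a log2 ratio of 0.31 (0.16 to 0.46), and Atg16l1, at 0.20 (0.06 to 0.34), were higher. The E1-like enzyme Atg7 (911 counts in the library labelled HKO, 1072 in the library labelled flox) was 1.22-fold lower (1.11 to 1.33), and Atg3, the E2-like enzyme that hands over ATG8 proteins (938 and 1286 counts), 1.42-fold lower (1.30 to 1.54). Atg3 stays lower with total counts, while Atg7 comes to −0.02 (−0.15 to 0.11) on the log2 scale. Atg10, the E2-like enzyme for Atg12, had 92 counts in the library labelled HKO and 57 in the library labelled flox, 1.56-fold higher with a wide interval (1.11 to 2.21). Of the measured members it had the fewest counts. The median of the group was −0.08, and with total counts it turns to 0.18.

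Atg4 proteases, which trim ATG8 proteins before conjugation and release them afterwards, were split by paralogue. Atg4d had 594 counts in the library labelled HKO and 1014 in the library labelled flox, 1.76-fold lower (1.59 to 1.96). Kri1, on the other strand, covers 19.3% of its exons and had 113 counts in the library labelled HKO and 97 in the library labelled flox. Atg4a (192 counts in the library labelled HKO, 154 in the library labelled flox), Atg4b (679 and 730) and Atg4c (231 and 231) each had an interval that included equality on the TMM scale, and with total counts Atg4a was higher, at a log2 ratio of 0.54 (0.22 to 0.85). Atg4d therefore took 35.0% (32.8 to 37.3) of Atg4 counts in the library labelled HKO and 47.6% (45.5 to 49.8) in the library labelled flox. In Atg4a 34.7% of the 100-base words occur in another gene, a pseudogene among them, so its reads may be split.

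All 5 measured ATG8 genes had intervals below equality on the TMM scale, and 1 of them differed far more than the rest. Such intervals were held by 27.7% of all genes and 31.7% of those with at least 100 counts. Gabarapl1 lies on chromosome 6 (positions 129533160 to 129542346, plus strand, ENSMUSG00000030161). It had 3863 counts in the library labelled HKO and 7749 in the library labelled flox, 2.07-fold lower (1.995 to 2.16). An unstranded count could mix it with 1700101I11Rik, which overlaps 28.3% of its exonic bases on the other strand but had only 3 counts in the library labelled HKO and 6 in the library labelled flox.

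The other ATG8 genes were close to each other. Of the LC3 subfamily, Map1lc3a had 854 counts in the library labelled HKO and 998 in the library labelled flox, 1.21-fold lower (1.10 to 1.33), and Map1lc3b 2088 and 2592, 1.28-fold lower (1.21 to 1.36). Of the GABARAP subfamily, Gabarap had 3196 counts in the library labelled HKO and 3939 in the library labelled flox, 1.27-fold lower (1.22 to 1.34), and Gabarapl2 454 and 537, 1.22-fold lower (1.08 to 1.39). With total counts the log2 ratios of these 4 lie between −0.09 and −0.01, and the intervals of Map1lc3a and Gabarapl2 then include equality while those of Map1lc3b and Gabarap do not. Gabarapl1 is at −0.79 (−0.84 to −0.73) on that scale. Summed over the family, the level was 517 scaled CPM in the library labelled HKO and 808 in the library labelled flox.

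Gabarapl1 made up 36.9% (36.0 to 37.9) of ATG8 counts in the library labelled HKO and 49.0% (48.2 to 49.8) in the library labelled flox. Every other gene of the family took a larger share in the library labelled HKO. Gabarap took 30.6% (29.7 to 31.5) there and 24.9% (24.2 to 25.6) in the library labelled flox. The number of Map1lc3b counts per Gabarap count was 0.653 (0.618 to 0.691) in the library labelled HKO and 0.658 (0.626 to 0.692) in the library labelled flox, intervals that overlap.

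**Figure D3:**
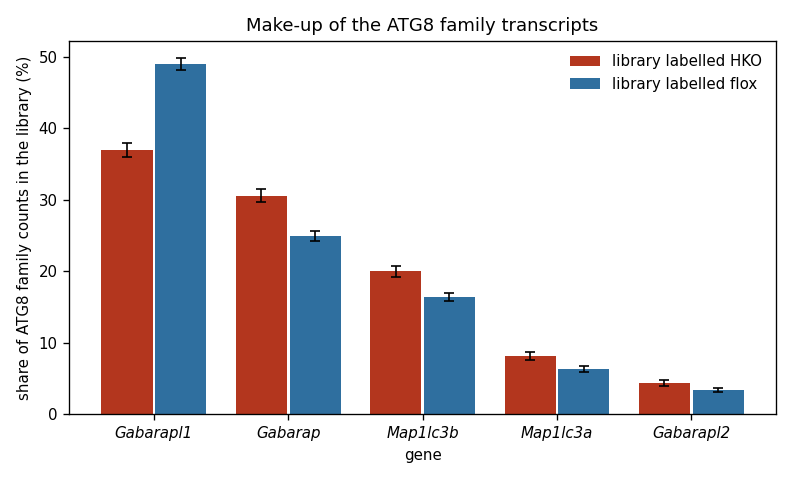
Share of all ATG8 family counts in each library (y axis, %) taken by each gene (x axis), for the library labelled HKO (left bars) and the library labelled flox (right bars). Error bars are 95% exact binomial intervals. Gabarapl1 is at 36.9% and 49.0%, and the other 4 genes are higher in the left bars.

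All 7 cargo receptor genes had intervals below equality on the TMM scale, with a median of −0.45, but the most abundant of them was almost level. Sqstm1, the ubiquitin-binding receptor p62, had 10361 counts in the library labelled HKO and 10413 in the library labelled flox, 1.04-fold lower (1.01 to 1.07), and its log2 ratio turns to 0.21 with total counts. Its relative Nbr1, which also binds ubiquitin, had 3837 counts in the library labelled HKO and 4643 in the library labelled flox, 1.25-fold lower (1.20 to 1.31). Tax1bp1, a receptor for protein aggregates, had 1607 and 2129 counts in the libraries labelled HKO and flox, 1.37-fold lower (1.28 to 1.46). Optn, which also serves mitophagy, had 1550 and 1765 counts, 1.18-fold lower (1.10 to 1.26), and turns to a log2 ratio of 0.03 with total counts. On that scale 4 of the 7 intervals lie below equality, those of Nbr1 and Optn include it and that of Sqstm1 lies above it. Mrnip, on the other strand, covers 17.3% of the exons of Sqstm1 and had 93 counts in the library labelled HKO and 70 in the library labelled flox. The Sqstm1 share of receptor counts was 51.4% (50.7 to 52.0) in the library labelled HKO and 44.9% (44.3 to 45.6) in the library labelled flox.

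Calcoco1, a receptor for turnover of the endoplasmic reticulum and Golgi, was furthest apart among the receptors, with 730 counts in the library labelled HKO and 1247 in the library labelled flox, 1.77-fold lower (1.61 to 1.94). Bnip3 and Bnip3l, receptors on the outer mitochondrial membrane, differed by like amounts. Bnip3 had 1167 counts in the library labelled HKO and 1679 in the library labelled flox, 1.49-fold lower (1.38 to 1.60), and Bnip3l 925 and 1306 counts, 1.46-fold lower (1.34 to 1.59). Bnip3 took 55.8% (53.6 to 57.9) of the counts of this pair in the library labelled HKO and 56.2% (54.4 to 58.0) in the library labelled flox, intervals that overlap. Both share sequence with other loci, Bnip3 over 24.6% and Bnip3l over 14.0% of their 100-base words, so some of their reads may be split.

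Genes of the pathway outside the 40 had medians nearer to that of all genes, but in both lists below more intervals lay below equality than above it. Of 33 other autophagy genes, 31 were measured, with a median of −0.07. None was past 2-fold higher (5.74% of all genes) and 2 were past 2-fold lower (4.66% of all genes). Intervals on the TMM scale lay below equality for 14 (27.7% of all genes) and above it for 7 (28.3% of all genes). All 31 had at least 100 counts, and among all genes of that depth the shares were 31.7% below and 32.2% above. The ratio of the list's summed counts was 0.823 on that scale, against 0.869 for the members. Trp53inp2, which binds ATG8 proteins and promotes autophagosome formation, had 2475 counts in the library labelled HKO and 5525 in the library labelled flox, 2.31-fold lower (2.20 to 2.42). Wdr45, a WIPI family member, had 97 and 198 counts in the libraries labelled HKO and flox, 2.10-fold lower (1.65 to 2.72), and Gm45208 covers 24.7% of its exonic bases. Past 1.5-fold, 1 of the 31 was higher (13.0% of all genes) and 5 were lower (10.3% of all genes). Those not yet named are given here after their values were seen. Nrbf2, a subunit of the PI3-kinase complex, was 1.54-fold higher (1.39 to 1.71), with 48.3% of its words in other loci. The receptor Retreg1, which serves turnover of the endoplasmic reticulum, was 1.74-fold lower (1.66 to 1.82), the mitophagy receptor Fkbp8 1.73-fold (1.67 to 1.80) and the mitophagy kinase Pink1 1.58-fold (1.51 to 1.65). Other receptors of this list, also named after their values were seen, went both ways on the TMM scale. Ncoa4 was 1.24-fold (1.18 to 1.31), Stbd1 1.20-fold (1.14 to 1.25) and Fundc1 1.42-fold higher (1.12 to 1.82). Tollip was 1.19-fold (1.11 to 1.28) and Phb2 1.08-fold lower (1.03 to 1.14). The intervals of Tex264 and Bcl2l13 included equality. The median of this list turns to 0.20 with total counts.

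Of 33 genes for nutrient signalling to autophagy and its transcription, none was past 2-fold (5.74% of all genes higher and 4.66% lower). Past 1.5-fold, 2 were higher (13.0% of all genes) and 3 lower (10.3% of all genes). Intervals on the TMM scale lay below equality for 15 (27.7% of all genes) and above it for 10 (28.3% of all genes). All 33 had at least 100 counts, and among all genes of that depth the shares were 31.7% below and 32.2% above. The median of this list was −0.12. With total counts the median turns to 0.15, 1 gene is past 2-fold higher and 6 are past 1.5-fold higher. The genes with the most counts were the mTOR partner Deptor (3733 counts in the library labelled HKO, 3919 in the library labelled flox) and the kinase Stk11, known as LKB1, which was 1.22-fold higher (1.16 to 1.28). The following were named after their values were seen. Per kilobase of exon Ddit4 was the highest of this list, at 48.5 scaled CPM per kb in the library labelled HKO and 69.1 in the library labelled flox. It was 1.42-fold lower (1.34 to 1.52). Prkab2, a subunit of the energy sensor AMPK, was 1.76-fold higher (1.40 to 2.24) and Rragd, a GTPase that signals amino acids to mTOR, 1.52-fold higher (1.03 to 2.30), while the mTOR inhibitor Tsc2 was 1.58-fold lower (1.46 to 1.72) and Prkag1, another AMPK subunit, 1.58-fold lower (1.31 to 1.91). B130046B21Rik covers 43.7% of the exonic bases of Prkag1. Among the transcription factors, Foxo1 was 1.46-fold higher (1.35 to 1.58), Foxo3 1.12-fold lower (1.05 to 1.18), with a log2 ratio of 0.11 under total counts, and Foxo4 1.86-fold lower (1.67 to 2.07) in the library labelled HKO. Tfeb had 522 counts in the library labelled HKO and 450 in the library labelled flox, with an interval that included equality on the TMM scale and lay above it on the other scale. Deptor turns to a log2 ratio of 0.15 with total counts.

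**Figure D4:**
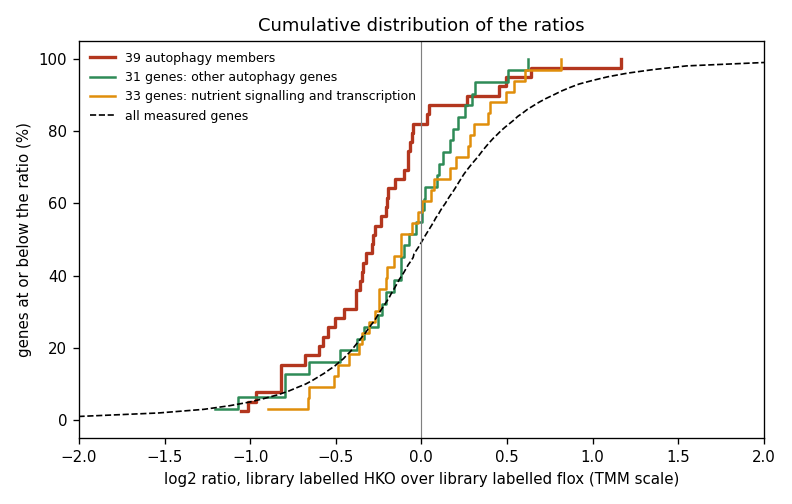
Share of genes (y axis, %) at or below a given log2 ratio, library labelled HKO over library labelled flox (x axis), for the members, the pathway lists and all measured genes. The curve of the members lies to the left of that of all genes through its middle, with medians of −0.28 and 0.01.

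Transcripts used as markers of several liver cell types were not level between these libraries. All 9 hepatocyte markers matched, of 10 listed, had intervals below equality, with a median of −0.72, and with total counts only Apoa1 turned, to a log2 ratio of 0.24. Together they summed to 72833 scaled CPM in the library labelled HKO and 111899 in the library labelled flox. All 13 Kupffer cell and macrophage markers had ratios above 1, and their sum was 912 scaled CPM in the library labelled HKO and 592 in the library labelled flox. The 9 markers of lipid-associated macrophages and macrophages derived from monocytes were all above 1 as well, summing to 83.1 and 41.5 scaled CPM in the libraries labelled HKO and flox, and no marker of these 3 lists was at 0. Spp1, which is also among the bile duct markers below, gave 32.3 and 23.3 scaled CPM of that sum in the libraries labelled HKO and flox. The median log2 ratio of these 9 markers was 2.37. The 8 sinusoidal endothelial markers summed to 365 scaled CPM in the library labelled HKO and 446 in the library labelled flox, and without TMM factors to 401 and 406 CPM. The 8 stellate cell markers summed to 433 scaled CPM in the library labelled HKO and 336 in the library labelled flox, with 1 past 2-fold higher (Lrat) and 1 lower (Des). Of the 5 bile duct markers Sox9 was past 2-fold higher and Krt19 and Krt7 were past 2-fold lower, and their sum of 66.3 scaled CPM in the library labelled HKO and 75.7 in the library labelled flox becomes 72.7 and 69.0 CPM without TMM factors. Of 8 lymphocyte markers 3 were measured, all with intervals that included equality, and of 4 neutrophil markers 0 were measured. In bulk liver, fewer cells of a type and less marker RNA per cell cannot be told apart. The part of these markers in the values of the autophagy genes was not tested.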

How the data were processed

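Liver RNA of 4 mice per genotype was pooled, a NEBNext kit was used for the library, and both ends of each fragment were sequenced. The deposited values are raw counts of reads per gene that the authors made with HTSeq. The submitters' processing notes name TopHat2 and HTSeq 0.6.1 on GRCm38, while the paper's methods name Hisat2 with HTSeq, and which of these made the files is not settled. No strand setting is given in the sources used here.

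Of 52636 identifiers, 52489 matched GENCODE M21, which gave symbols, positions, union exon lengths and exon overlaps. Another 311 loci without annotation were left out, which took 0.261% of the library labelled HKO and 0.328% of the library labelled flox. TMM factors came from edgeR 4.0.16, used for scaling only, as was DESeq2 1.42.0. A prior of 0.5 counts entered each log2 ratio, and genes needed 20 counts over both libraries. Intervals are 95% Clopper-Pearson intervals of the share of counts in 1 library. Levels are scaled CPM per kilobase of exon. Shared sequence is the share of 100-base words found in another gene, on either strand. The members and lists were chosen with earlier results of these data known. Every member is named, and of each pathway list the genes past 2-fold (at most 4 a side) or the 2 with the most counts. Marker lists are given by counts and sums. Alternatives varied the scaling, prior, count floor, depth, gene set and fold limit. Tested on simulated data for this comparison, the intervals covered the known ratio in 95.7% of 14421 genes. The simulated counts held counting error only, the error the intervals assume, so variation between mice or pools was not tested. Protein sequences were not analysed here. Calculations used Python 3.11.15, SciPy 1.17.1 and R 4.3.3.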

Additional observations from a re-analysis of the deposited data

How the results depend on the processing

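The scaling was the choice that mattered most. With total counts, 0 members were past 2-fold lower, 4 were past 1.5-fold higher and 3 lower, and the median of all members was −0.0159. The shares of all genes past these limits on that scale were not counted. The role group medians were then −0.1162 for the ULK complex, 0.067 for the PI3-kinase complex, −0.0749 for membrane supply, 0.1834 for conjugation, −0.0828 for the ATG8 family and −0.187 for the cargo receptors. In the same setting the other autophagy genes had 0 past 2-fold lower, 2 past 1.5-fold higher, 2 past 1.5-fold lower and a median of 0.1966, and the nutrient signalling genes had 1 past 2-fold higher, 6 past 1.5-fold higher, 1 past 1.5-fold lower and a median of 0.1486. DESeq2 size factors left 1 member past 2-fold lower, Gabarapl1. Upper-quartile factors added Ulk1 to the genes past 2-fold lower and left 1 member, 0 other autophagy genes and 1 nutrient signalling gene past 1.5-fold higher.

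Without genes that share exons or sequence with another gene, 30 members remained, of which 1, Atg13, was past 2-fold lower and 4 were past 1.5-fold lower, and of the other autophagy genes 1 was past 2-fold lower and 0 past 1.5-fold higher. No member had an absolute log2 ratio above 1.5, so the counts are 0 higher and 0 lower at that limit. With a trend on GC content and length removed, an alternative chosen after seeing the data, 0 members were past 2-fold lower, the receptor median was −0.5655, 3 other autophagy genes were past 1.5-fold lower and 1 nutrient signalling gene past 1.5-fold higher, and the cause was not tested. Depp1 stayed past 2-fold higher in all settings except the limit of 1.5. Of the 39 members, 36 left their counting interval with total counts, 6 with upper-quartile factors and 9 with the trend removed, and none with the other alternatives run on single genes. The distance of the members' median from that of all genes ran from −0.2924 to −0.2441 over the settings. Settings that change only the scaling cannot alter this distance. No paired analysis was possible because each genotype has 1 library. Depth limits mainly Atg10, whose interval spans 1.11 to 2.21.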
